A study of Homo sapiens with 6 samples.

Results

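The regions described here are peaks of 82-kDa choline acetyltransferase (ChAT) in vehicle-treated cells that were found again, at least in part, after exposure of the cells to Aβ1–42 oligomers. They were chosen by the overlap of the peak lists of these same libraries: a vehicle peak on chromosomes 1 to 22 or X was called kept if it shared at least 1 nt with a peak of the Aβ1–42 list. By this rule 353 of 7044 vehicle peaks were kept, which is 5.01% (95% exact Clopper-Pearson interval 4.51 to 5.55%). The other 6691 were not kept. Of the 6290 Aβ1–42 peaks on these chromosomes, 348 (5.53%) lay on a kept region. Because the overlap chose the members, these counts are a description and were not tested.

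The cells were SH-SY5Y, a human neuroblastoma line that takes on neuron-like features when treated with retinoic acid, here stably expressing heterologous 82-kDa ChAT in every sample. They were differentiated with retinoic acid for 3 days and then received vehicle or 100 nM oligomeric Aβ1–42 for 4 h, with 3 plates of cells for each treatment. Cross-linked chromatin was precipitated with an antibody to the C-terminus of ChAT made by the authors, or with an antibody to SATB1, and the DNA was sequenced (ChIP-seq). There was 1 library for each protein and treatment, so the values below have no replicate error, no test between treatments was made, and every interval reflects only the number of peaks counted in a single library. Peak lists do not show how deeply a library was read, and each had the peaks of its own treatment's input removed. Depth, input removal and treatment therefore cannot be told apart as sources of a peak that is in 1 list alone.

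ChAT makes the neurotransmitter acetylcholine, and its 82-kDa form, found in primates, carries an N-terminal extension that takes it to the nucleus. Large parts of human chromosomes near the centromeres consist of satellite DNA, in which a short unit is repeated head to tail over long stretches. In human satellites 2 and 3 this unit derives from the pentamer CATTC, which reads GAATG on the other strand. Minisatellites are shorter arrays of longer units, are variable between people, and are frequent towards the chromosome ends. Alu elements, in contrast, are short copies dispersed through genes. SATB1 is a chromatin organizer that binds AT-rich DNA at matrix attachment regions, where chromatin loops are anchored.

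The stretches below show the pentamer arrays and the highest-scoring kept regions in genes. Among the kept regions in a repeat class, the arrays were the largest class when each peak was counted singly. All are read from hg38 on the plus strand, 5′ to 3′, inside the overlap of the vehicle and Aβ1–42 peaks, and stop after 300 nt where the overlap was longer. The first is from an array near the centromere of chromosome 20, inside the vehicle peak with the highest score of all kept peaks, and the capitals mark each copy of the pentamer, here GAATG.
Chromosome 20 array, chr20:31066294-31066593: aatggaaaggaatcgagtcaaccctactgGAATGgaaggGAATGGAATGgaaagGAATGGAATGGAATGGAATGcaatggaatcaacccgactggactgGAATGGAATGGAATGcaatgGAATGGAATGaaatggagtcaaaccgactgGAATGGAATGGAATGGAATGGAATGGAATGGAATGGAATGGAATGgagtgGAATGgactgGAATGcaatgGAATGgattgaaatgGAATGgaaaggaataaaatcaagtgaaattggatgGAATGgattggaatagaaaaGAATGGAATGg
In this stretch the pentamer occurred 28 times, in runs broken by copies that differ from it.

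The other 5 stretches come from the highest-scoring kept peaks that touched a protein-coding gene and were neither rich in the pentamer nor made mainly of sequence found elsewhere in the genome. Capitals mark TCCAT or TCCCAT on either strand (ATGGA or ATGGGA on the plus strand), a core that the study found in ChAT peaks.
RPTOR, intron 5, chr17:80744002-80744301: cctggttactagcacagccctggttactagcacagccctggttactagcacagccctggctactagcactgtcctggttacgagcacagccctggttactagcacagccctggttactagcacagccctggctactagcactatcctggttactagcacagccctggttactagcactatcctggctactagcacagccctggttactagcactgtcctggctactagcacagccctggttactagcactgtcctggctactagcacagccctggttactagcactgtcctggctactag
ATP9B, intron 15, chr18:79327861-79328045: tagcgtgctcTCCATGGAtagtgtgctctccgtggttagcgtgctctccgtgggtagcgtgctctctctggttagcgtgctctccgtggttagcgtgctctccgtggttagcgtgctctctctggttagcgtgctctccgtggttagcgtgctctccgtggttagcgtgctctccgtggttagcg
RPH3AL, intron 5, chr17:315211-315510: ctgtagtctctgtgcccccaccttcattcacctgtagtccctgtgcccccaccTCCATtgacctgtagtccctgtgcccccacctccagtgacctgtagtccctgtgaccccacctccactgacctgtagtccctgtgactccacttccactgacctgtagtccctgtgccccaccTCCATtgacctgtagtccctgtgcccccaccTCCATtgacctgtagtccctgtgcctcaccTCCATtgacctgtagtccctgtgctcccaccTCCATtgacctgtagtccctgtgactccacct
TMEM242, intron 3, chr6:157310391-157310690: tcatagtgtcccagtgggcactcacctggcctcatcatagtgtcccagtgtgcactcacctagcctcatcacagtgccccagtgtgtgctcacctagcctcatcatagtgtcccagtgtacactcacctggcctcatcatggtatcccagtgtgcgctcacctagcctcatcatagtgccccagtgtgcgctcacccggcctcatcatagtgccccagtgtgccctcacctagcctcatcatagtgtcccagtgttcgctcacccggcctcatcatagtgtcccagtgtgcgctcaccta
ZNF71, intron 2 of the MANE Select transcript and exon of another transcript, chr19:56609624-56609923: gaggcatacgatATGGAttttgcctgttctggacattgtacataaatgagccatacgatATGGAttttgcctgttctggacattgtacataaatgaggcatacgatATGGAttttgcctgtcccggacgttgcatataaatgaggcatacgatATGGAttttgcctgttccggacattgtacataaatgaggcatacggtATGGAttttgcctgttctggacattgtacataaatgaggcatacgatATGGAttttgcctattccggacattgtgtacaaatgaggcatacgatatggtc
All 5 are arrays of a longer unit. Shifting the whole vehicle peak in ATP9B by 18 nt matched 85.8% of its bases to themselves, shifting that in TMEM242 by 34 nt matched 87.7%, and shifting that in RPTOR by 144 nt matched 91.0%. In RPH3AL and ZNF71 the best shifts of 31 and 47 nt matched 63.5% and 61.1%. The core occurred 2 times in the ATP9B stretch, on both strands at 1 place, 5 times in that of RPH3AL and 6 times in that of ZNF71, and in neither that of RPTOR nor that of TMEM242, so it was not common to them.

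Where a peak was kept, most of it was kept. The overlap covered a median of 86.2% of the vehicle peak (quartiles 64.6 and 98.1%), and 53 vehicle peaks were covered in full. The shared bases, 168599 nt in all, were 77.9% of the length of the kept vehicle peaks and 93.3% of that of the Aβ1–42 peaks on them. The centres of the 2 peaks of a pair were a median of 41 nt apart. The edge of the rule held few regions: the smallest overlap was 18 nt and the median 203 nt, while just outside it the smallest gap was 2 nt, with 4 vehicle peaks within 10 nt of an Aβ1–42 peak and 72 within 200 nt. The peak with the overlap of 18 nt lay in COL5A1, beside another kept peak.

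At these regions the vehicle peak was more often the longer of the pair. In the 291 regions where 1 vehicle peak met 1 Aβ1–42 peak, the median length was 217 nt after vehicle (quartiles 132 and 625 nt) and 206 nt after Aβ1–42 (quartiles 113 and 565 nt). The vehicle peak was the longer in 195 of them and the Aβ1–42 peak in 90. Among the 115 of these rich in the pentamer the medians were 641 and 571 nt, and the vehicle peak was longer in 87. Over all 377 pairs, in which a long peak can be counted more than once, the vehicle peak was the longer in 236 and the Aβ1–42 peak in 135, while the medians stood the other way, at 332 nt after vehicle and 347 nt after Aβ1–42. The scores rank peaks only within a list and were not compared between libraries.

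**Figure D1:**
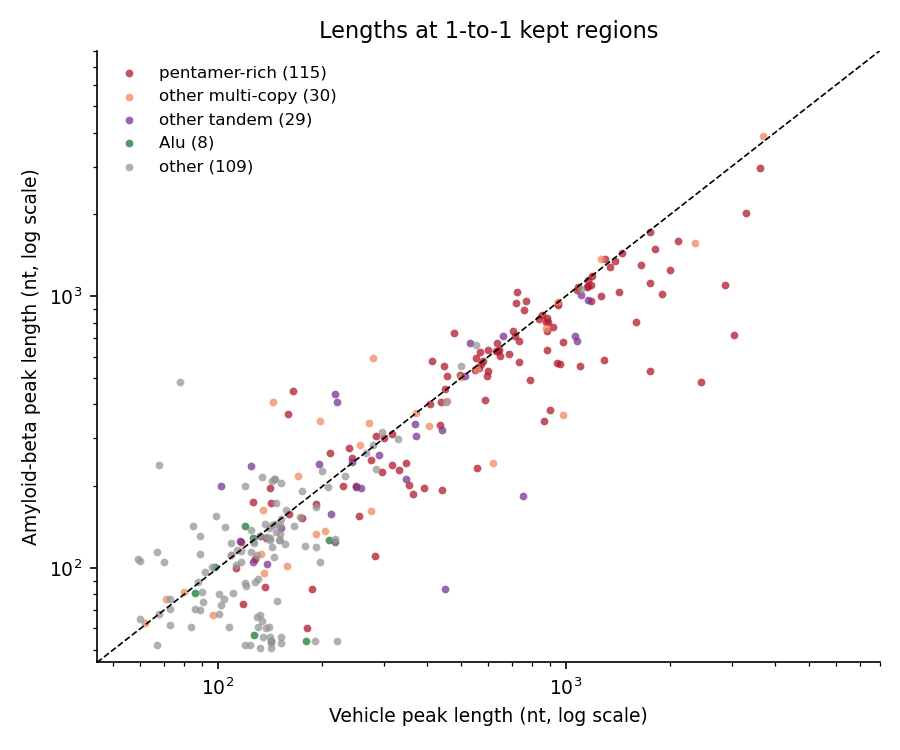
Length of the vehicle peak (horizontal axis) and of the Aβ1–42 peak (vertical axis), in nt on log scales, at the 291 kept regions with 1 peak of each, coloured by sequence class with the number of regions in the legend. Points lie along the dashed line of equal length, more often below it (195) than above it (90), and the pentamer-rich regions make up most of those over 1000 nt.

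Kept peaks were long and high within their own list. Their median length was 283 nt (quartiles 139 and 736 nt, range 59 to 7009 nt) against 135 nt (quartiles 107 and 171 nt, range 52 to 6592 nt) for vehicle peaks that were not kept. Their median score, which is -log10 of the MACS p-value multiplied by 10, was 108 against 65.1. Of the 100 vehicle peaks with the highest scores 81 were kept, and of the 112 peaks of 1000 nt or more 60 were kept (53.6%). A long peak has more bases with which to meet another, so length is tied to the rule and these values describe the choice. Kept peaks took up 216419 of the 1372914 nt under vehicle peaks (15.8%).

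Counted as single peaks, the kept regions were to a large extent satellite-like arrays. With at least 3 copies of CATTC for every 100 nt on either strand as the mark of a pentamer-rich peak, 172 of 353 kept peaks were pentamer-rich (48.7%, interval 43.4 to 54.1%), against 650 of 6691 peaks not kept (9.71%). The difference was 39.0 percentage points (95% Newcombe interval 33.8 to 44.3). Peaks of 1 array are counted singly in it, and with 1 peak per locus the difference was 16.2 points. Of all 822 pentamer-rich vehicle peaks 20.9% were kept, against the background of 5.01% for all vehicle peaks. Seen from the Aβ1–42 list, 170 of its 229 pentamer-rich peaks lay on a kept region (74.2%, interval 68.1 to 79.8%), while of its 4696 peaks in no repeat class 2.41% did. The vehicle list thus held more pentamer-rich peaks than the Aβ1–42 list, and most of those in the Aβ1–42 list fell on kept regions.

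Within the pentamer-rich kept peaks the density of the pentamer had close quartiles. Its median was 10.5 copies per 100 nt, with quartiles at 9.86 and 11.2 and a range from 3.07 to 17.4, where an unbroken array would have 20. At the other end, 144 kept peaks held no copy at all. The kept peaks thus fell into arrays of the pentamer and sequences with few or no copies of it.

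Among vehicle peaks of 200 nt or more, pentamer-rich peaks were kept more often than others. There 150 of 433 pentamer-rich peaks were kept (34.6%, interval 30.2 to 39.3%) and 55 of 982 others (5.60%, interval 4.25 to 7.23%). This group ran up to 7009 nt, and lengths within it were not matched. Among peaks of 52 to 100 nt the shares were 0.909% (1 of 110) and 2.31% (30 of 1296), with intervals that overlap. When the peaks not kept were weighted to the lengths of the kept ones, the difference in the pentamer-rich share was 26.9 percentage points in place of 39.0.

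**Figure D2:**
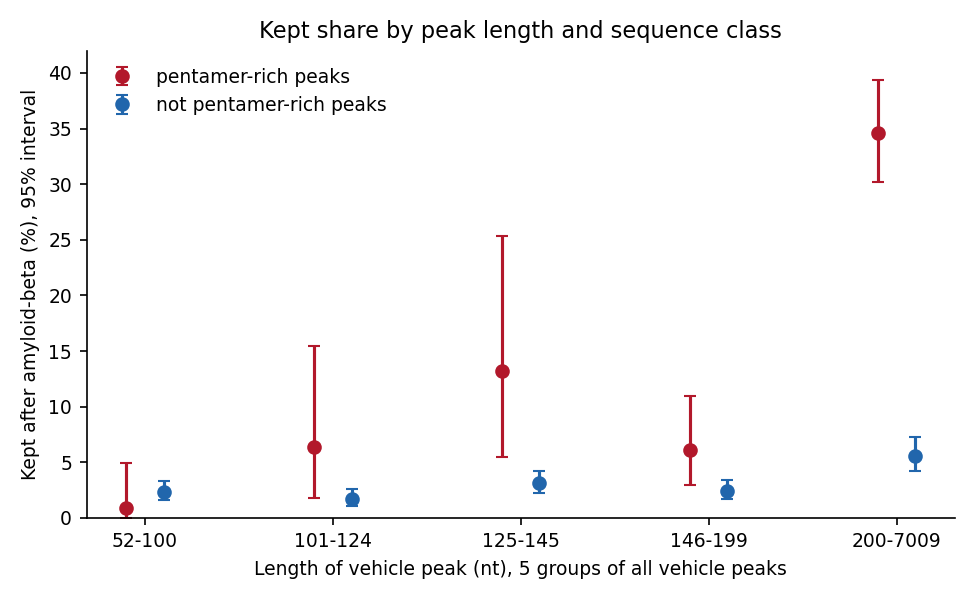
Share of vehicle peaks kept (vertical axis, %, with 95% exact intervals) in 5 groups of the vehicle list by peak length in nt (horizontal axis), for pentamer-rich peaks (red) and all other peaks (blue). In the longest group, within which lengths were not matched, 34.6% of pentamer-rich and 5.60% of other peaks were kept.

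These arrays lay in few places. When kept peaks within 10000 nt of each other were joined, the 353 peaks fell into 218 loci, of which 194 held 1 kept peak. Joined within their class, the 172 pentamer-rich peaks made 41 loci, and the 110 kept peaks in no repeat class made 110. By loci the arrays were therefore not the largest class. The 7 loci with the most kept peaks held 116 of them (32.9%), and all 116 were pentamer-rich. The fullest was chr4:49091253-49156616, near the centromere, where 33 of 65 vehicle peaks were kept. At chr10:41857027-41916270 it was 32 of 40 vehicle peaks, at chr4:49632111-49657881 14 of 23, and at chr17:21969091-21992040 12 of 27. Not every peak of an array was therefore kept, even at the fullest loci. The remaining 3 were chr2:89827816-89840683 (10 of 16), chr20:31051528-31076313 (9 of 11) and chr20:31184786-31201734 (6 of 9). No kept peak in these 7 loci touched an annotated gene. At the fullest locus 20 of the 33 kept peaks were made mainly of sequence found elsewhere in the genome. The other loci, in the order given, had 3, 0, 0, 0, 1 and 3 such peaks. The place of these peaks is uncertain, because their reads can fit elsewhere as well. Peaks of 1 array share their sequence and are not independent.

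The strongest single regions were in such arrays as well. The vehicle peak at chr20:31062919-31069927 was 7009 nt long with a score of 3100, and 3 Aβ1–42 peaks together covered 94.5% of it. The longest of the 3, at chr20:31066294-31069600, was 3307 nt with a score of 69.5. At chr10:41909228-41913107 the vehicle peak of 3880 nt (score 2156) met 3 Aβ1–42 peaks, the longest of 2563 nt (score 309), which covered 94.5% of it. At chr5:49656268-49661346 a vehicle peak of 5079 nt (score 1840) met 2 Aβ1–42 peaks, the longer of 4171 nt (score 525), which covered 95.4% of it. These 3 long vehicle peaks were thus found again almost whole, in pieces. Other long array peaks with high scores were covered less. At chr4:49640245-49643036 (2792 nt, score 1415) the Aβ1–42 peaks covered 36.1% of the vehicle peak. At chr20:31054612-31057055 (2444 nt, score 859), in the same locus as the first, 18.9% was covered. In all, 21 kept vehicle peaks met more than 1 Aβ1–42 peak.

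By chromosome the kept peaks followed these arrays. Chromosome 4 held 55 (12.7% of its 434 vehicle peaks), of which 47 were pentamer-rich, chromosome 10 held 43 (9.93%), 37 of them pentamer-rich, and chromosome 20 held 28 (12.4%), 25 of them pentamer-rich. Chromosome 3 had 348 vehicle peaks, of which 3 were kept (0.862%), none of them pentamer-rich. Of the 266 vehicle peaks on chromosome X 7 were kept, and none of these was pentamer-rich.

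**Figure D3:**
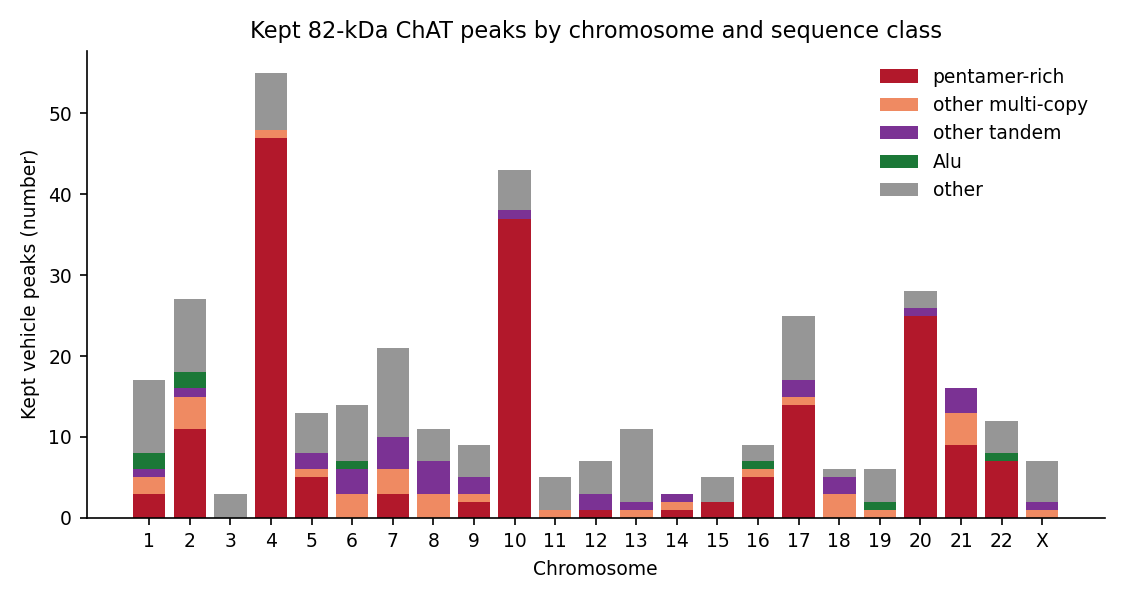
Number of kept vehicle peaks (vertical axis) on each chromosome (horizontal axis), stacked by sequence class. Chromosomes 4, 10 and 20 hold 55, 43 and 28 kept peaks, mostly pentamer-rich, while chromosome 3 holds 3.

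The kept peaks lay outside genes more often than the rest of the list. Of the kept peaks 252 touched no gene (71.4%, interval 66.4 to 76.0%), against 45.8% of those not kept, a difference of 25.6 percentage points (interval 20.5 to 30.2). Introns were touched by 97 kept peaks (27.5%) and by 51.4% of the others, a difference of -23.9 points (interval -28.4 to -18.8). Exons were touched by 8 kept peaks (2.27%) against 5.59%, and the 2000 nt upstream of a transcription start by 16 (4.53%) against 6.80%. The interval of the exon difference (-4.58 to -1.12 points) left out 0, and that of the promoter difference (-4.10 to 0.496) did not.

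Most of this difference in location went with the arrays. Without the pentamer-rich peaks, 181 kept and 6041 other peaks remained, and 47.0% of the former and 40.8% of the latter were intergenic, a difference of 6.12 points (interval -1.12 to 13.5). For introns the difference was -5.22 points (interval -12.6 to 2.08), for exons -1.72 points (interval -3.98 to 2.38) and for promoters 0.838 points (interval -2.44 to 5.81). At these numbers of peaks no difference in location was detectable outside the arrays, and differences of the size of these intervals remain possible.

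**Figure D4:**
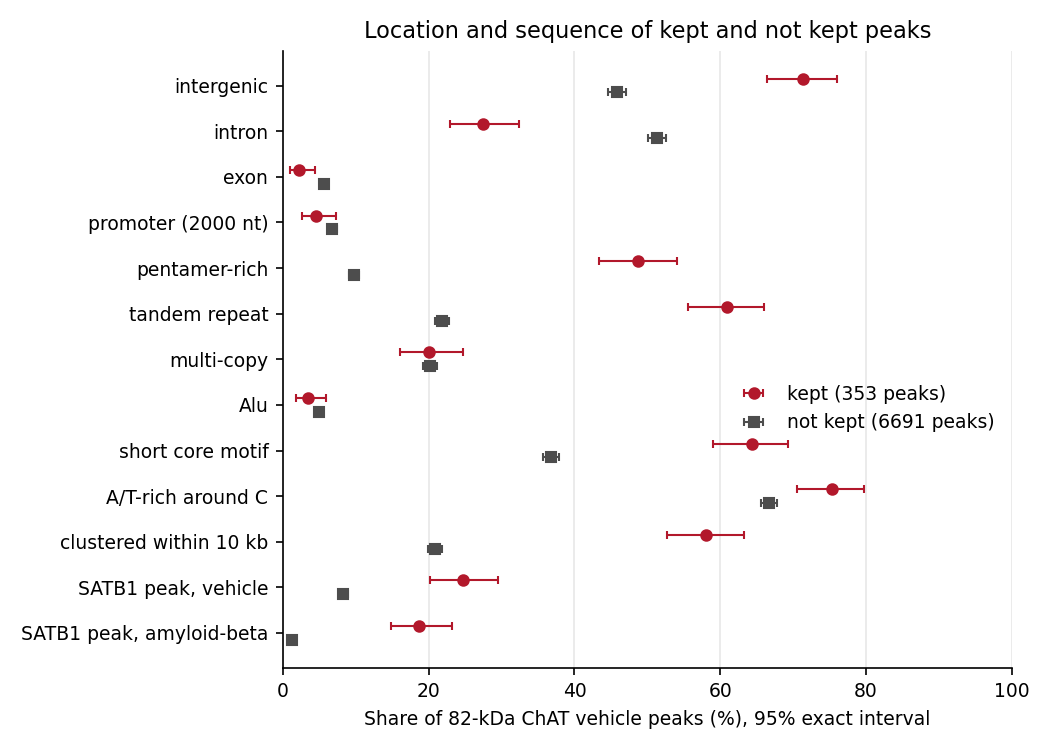
Share of vehicle 82-kDa ChAT peaks with each property (horizontal axis, %, with 95% exact intervals) for the 353 kept peaks (red circles) and the 6691 not kept (grey squares). The short core motif is TCCAT or TCCCAT on either strand, and kept peaks stand higher for intergenic, pentamer-rich, tandem, clustered and SATB1-overlapping sequence and lower for introns.

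Other kinds of repeat gave a mixed picture. A peak was called a tandem repeat if it was at least 100 nt long and at least 70% of its bases matched those a fixed shift of 2 to 200 nt further on, a measure added after the data were seen. This held for 60.9% of kept peaks and 21.8% of the others, a difference of 39.1 points, or 16.3 points when weighted to the lengths of kept peaks. Outside the pentamer-rich peaks it held for 51 of 181 (28.2%) against 16.6%, a difference of 11.6 points (interval 5.50 to 18.6), which was not weighted by length. Of these 51, 31 had a best shift of 10 to 60 nt, 17 one of 61 to 200 nt and 3 one of under 10 nt. The best shift can be a multiple of the repeated unit. Peaks called multi-copy, in which over 50% of the 51-mers have a further copy in the assembly, were 20.1% of both groups, but 35.1% of the peaks not kept when these were weighted to the lengths of kept peaks, a difference of -15.0 points. Reads from such sequence can fit more than 1 place. Alu sequence was found in 12 kept peaks (3.40%) and 4.99% of the others, with an interval of the difference from -3.14 to 0.905 points.

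Counting each peak once, in the first class it met, the 353 kept peaks were 172 pentamer-rich, 32 otherwise multi-copy, 31 in other tandem repeats, 8 with Alu and 110 in no such class. The share of each class that was kept was 20.9%, 2.67%, 5.50%, 3.40% and 2.60%, so the pentamer-rich class stood apart. The class of other tandem repeats came next. Its interval of 3.76 to 7.71% held the 5.01% of all vehicle peaks, a share that includes the pentamer-rich class. It lay above the interval of the peaks in no class, 2.14 to 3.13%. Peaks of the class of other tandem repeats had to be at least 100 nt, and its kept ones had a median of 250 nt. Length was not weighted within the class. The 110 kept peaks in no class were short, with a median of 134 nt against 126 nt for their counterparts that were not kept, and their median GC content was 39.4% against 39.3%. Some of them, such as those of RPH3AL and ZNF71 shown above, repeat a longer unit in the printed stretch but did not reach the tandem mark over the whole peak.

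The difference in base composition depended on which peaks were compared. Median GC content was 41.2% for kept peaks (quartiles 39.7 and 48.2%) and 41.3% for the others (quartiles 35.0 and 49.6%), or 43.9% for the others when weighted to the same lengths. Without pentamer-rich peaks the median of the kept peaks was 4.56 percentage points higher than that of the others. The core TCCAT or TCCCAT, searched on both strands, was in 64.3% of kept peaks and 36.8% of the others, or 45.9% of the others when weighted to the same lengths. In an array, adjacent CATTC copies spell TCCAT themselves, and without pentamer-rich peaks the shares were 31.5% and 30.3%, a difference of 1.15 points (interval -5.28 to 8.33). The A/T-rich pattern around C known from SATB1 sites, with 3 to 6 A or T before the C and 3 after it on either strand, was in 75.4% of kept peaks against 66.7%. Without pentamer-rich peaks the order turned round, with 54.7% against 64.4%, a difference of -9.70 points (interval -17.1 to -2.51).

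Kept ChAT peaks met SATB1 peaks more often than other vehicle peaks did. A SATB1 peak of the vehicle list overlapped 87 kept peaks (24.6%, interval 20.2 to 29.5%) against 8.31% of those not kept. A SATB1 peak of the Aβ1–42 list overlapped 66 kept peaks (18.7%, interval 14.8 to 23.2%) against 1.21%, so that of the 147 vehicle ChAT peaks that met an Aβ1–42 SATB1 peak 44.9% were kept. The lists of both proteins had peaks of the same treatment's input removed, so they are not independent of each other. Whether this overlap went with the arrays differed between the lists. Without pentamer-rich peaks the vehicle SATB1 list overlapped 20 of 181 kept peaks (11.0%) against 8.44%, with an interval of the difference from -1.24 to 8.05 points, whereas the Aβ1–42 SATB1 list overlapped 24 (13.3%) against 1.09%, a difference of 12.2 points (interval 7.97 to 17.9). The difference between these 2 differences was not tested. Kept peaks were chosen for a peak in the Aβ1–42 ChAT list, so their overlap with another Aβ1–42 list is tied to the rule. The Aβ1–42 SATB1 values, with or without the arrays, therefore describe the choice.

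A total of 30 kept peaks (8.50%) overlapped a peak in both SATB1 lists and so had a peak of each protein after each treatment, against 9 of the peaks not kept (0.135%). The Aβ1–42 SATB1 list is part of this count, so it is tied to the rule as well. Of the 30, 25 were pentamer-rich, and they included the arrays on chromosomes 4, 5 and 10 named above and a peak in intron 1 of SH3RF3. At the other end 230 kept peaks overlapped no SATB1 peak. Outside the pentamer-rich class, kept regions with an Aβ1–42 SATB1 peak included long tandem arrays away from genes. At chr10:10266171-10267277 the vehicle ChAT peak was 1107 nt (score 819) and the Aβ1–42 peak 1008 nt (score 109), with 88.8% of bases matched at a shift of 105 nt. At chr7:155334542-155335702, near the end of the chromosome, the peaks were 1161 nt (score 211) and 965 nt (score 172), with 87.6% matched at a shift of 32 nt. They also included short peaks in genes, such as those in ABCC10, which encodes an ATP-binding cassette transporter, NLRC4, which encodes an inflammasome protein, and HIVEP3, which encodes a zinc finger transcription factor.

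Few genes carried a kept region. Of the 353 kept peaks 79 touched a protein-coding gene and 22 touched noncoding genes only. The 79 lay on 84 protein-coding genes, since some genes overlap, which is 3.99% of the 2107 with a vehicle peak. Of the 660 protein-coding genes with a peak in both ChAT lists, 576 had none that was kept: their peaks after vehicle and after Aβ1–42 lay at different places of the gene. The 84 genes with a kept peak were 12.7% of the 660, while 5.01% of all vehicle peaks were kept. The first is a share of genes and the second a share of peaks, so they do not compare. Counted by peaks over genes of all types, 2.75% of vehicle peaks touching an intron and 7.60% of those touching no gene were kept. Without pentamer-rich peaks these shares were 2.65% and 3.33%. Shared regions were thus few both inside and outside genes. The 84 had a median length of 168393 nt, against 120129 nt for genes with a vehicle peak but no kept one.

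The genes with more than 1 kept peak were PCBP3, COL5A1 and STS, with 2 each. In intron 13 of PCBP3, which encodes an RNA-binding protein, a single Aβ1–42 peak at chr21:45924204-45924758 met vehicle peaks of 495 and 354 nt. In intron 11 of COL5A1, the gene of a type V collagen chain, an Aβ1–42 peak of 242 nt covered a vehicle peak of 168 nt in full and the next one by 18 nt. The 2 kept regions of STS, which encodes steroid sulfatase, lay far apart at chrX:7501996-7502135 and chrX:7721533-7721744. In COL5A1 the vehicle peak of 168 nt was a tandem repeat and the next one was pentamer-rich. In STS the region at chrX:7721533-7721744 was a tandem repeat.

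The kept region with the highest score in a gene was in intron 5 of RPTOR, whose product Raptor is the substrate-recognizing subunit of mTOR complex 1. Its vehicle peak, chr17:80743933-80744996, was 1064 nt with a score of 652, and its Aβ1–42 peak was 714 nt with a score of 52.5, all of it inside the vehicle peak. SH3RF3, the gene of a ring finger protein with SH3 domains, followed with a pentamer array in intron 1 that was 580 nt after vehicle (score 643) and 578 nt after Aβ1–42 (score 212). In intron 15 of ATP9B the vehicle peak was 756 nt (score 275) and the Aβ1–42 peak 185 nt (score 57.7). ATP9B and ATP11A, in whose intron 17 a vehicle peak of 452 nt shared 227 nt with an Aβ1–42 peak, encode ATPases of the family of phospholipid flippases. These peaks were shorter after Aβ1–42 than after vehicle.

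Longer peaks after Aβ1–42 were also seen. In intron 5 of RPH3AL, whose product acts in regulated exocytosis, the peaks were 552 nt (score 179) after vehicle and 663 nt (score 74.1) after Aβ1–42. In intron 3 of TMEM242 they were 660 nt (score 159) and 713 nt (score 56.0). In intron 2 of MTA1, which encodes a subunit of the nucleosome remodelling and deacetylase complex NuRD, and in the overlapping gene TEX22, they were 196 nt (score 97.3) and 241 nt (score 101). The peak in SKAP2, the gene of an adaptor of Src family kinases, was 105 nt after vehicle and 142 nt after Aβ1–42. All 4 of these Aβ1–42 peaks were thus the longer of the pair.

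Some genic regions are uncertain because their sequence has near copies. DUX4, a double homeobox transcription factor encoded in a repeat near the end of chromosome 4, had a vehicle peak of 952 nt and an Aβ1–42 peak of 953 nt that shared 950 nt, and 89.2% of its 51-mers had a further copy in the assembly. Most 51-mers were repeated also at the kept peaks in RAB11FIP3, which encodes a binding partner of the GTPase Rab11, and in AGRN, which encodes agrin, the proteoglycan that clusters acetylcholine receptors at the neuromuscular junction. In AGRN both peaks were 371 nt long and shared 340 nt of intron 2. At FCGR3A, an Fc receptor gene with a near-identical neighbour, a vehicle peak of 136 nt held an Aβ1–42 peak of 96 nt. The same limit holds for kept peaks in SH3RF3 (82.3% of 51-mers repeated), PCBP3 (73.9 and 74.7%) and NTM (56.9%). It holds also for the promoter peaks of THNSL2 and FSD1, which were multi-copy.

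Exons and promoters of protein-coding genes held 4 and 10 kept peaks. The highest score was that of ZNF71, the gene of a zinc finger protein, with 502 nt after vehicle (score 127) and 556 nt after Aβ1–42 (score 57.5). SEPTIN3, the gene of a neuronal septin, had an exonic region of 173 nt after vehicle and 154 nt after Aβ1–42. ABCC10 had an exonic region that was also upstream of a start, with 166 and 143 nt. In promoters the highest scores were those of FCMR, an Fc receptor for IgM, with 330 nt (score 110) and 298 nt (score 88.0), and RFFL, which encodes a ubiquitin ligase, with 101 nt (score 95.6) and 68 nt (score 67.0). NLRC4, THNSL2, SPACA3, HHAT, SNX8 and FSD1 had the remaining named promoter regions, with vehicle peaks of 120 to 257 nt. HHAT encodes the acyltransferase that modifies hedgehog proteins, SNX8 a sorting nexin and SPACA3 a sperm acrosome protein.

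The gene lists chosen for the fields of the study held few kept regions. Of 87 genes for neuronal adhesion and synapse, 38 had a vehicle peak, 28 a peak in both lists and 3 a kept peak (7.89% of the 38). The 3 were NTM and DSCAM, which encode adhesion molecules of the immunoglobulin family, and CDH18, a cadherin gene. In intron 2 of NTM a vehicle peak of 618 nt held an Aβ1–42 peak of 243 nt, in intron 3 of DSCAM peaks of 126 and 105 nt shared 37 nt, and in intron 3 of CDH18 peaks of 145 and 212 nt shared 142 nt. Of 65 ion channel genes, 26 had a vehicle peak and 1 a kept one, KCNH1, which encodes a voltage-gated potassium channel, with an Aβ1–42 peak of 52 nt inside a vehicle peak of 67 nt in intron 3. Genes for axon guidance (13 of 46 with a vehicle peak), for APP processing and Alzheimer risk (15 of 53) and for chromatin remodelling and histone modification (9 of 51) had no kept peak. Over all protein-coding genes 3.99% of those with a vehicle peak had a kept one, so numbers this small do not set any list apart.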

How the data were processed

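ChIP-seq for 82-kDa ChAT and SATB1 was analysed from the peak lists that the authors deposited, 1 for each library, with the position and score of each peak on hg38. To make this score, the authors aligned reads by the Burrows-Wheeler Aligner with masked repeats, ran MACS at p below 1e-05 and dropped peaks shared with the input. The score is -log10 of p multiplied by 10, hence 50 or more. Reads and inputs were not analysed here. The paper gives a range of read numbers over its samples, so the depth of each single library is unknown. It describes the reads as both single and paired.

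Members, gene lists and measures were chosen with earlier results of these data known. The tools were samtools 1.23.1, blastn 2.17.0, Python 3.11.15, scipy 1.17.1, pandas 2.3.3, numba 0.67.0, numpy 2.4.6 and pysam 0.24.0. GENCODE 44 gave the genes, and introns were numbered along the MANE Select transcript. Multi-copy peaks had over 50% of 51-mers repeated in the assembly. Alu sequence was found with blastn (e-value 1e-05) against the 7SL RNA transcript RN7SL1, from which Alu derives, in place of a single Alu copy. Shares have exact Clopper-Pearson intervals and differences have Newcombe intervals, without p-values. Named were the 10 protein-coding genes with the most kept peaks (ties by score), up to 12 with kept peaks in exons or promoters, those of the 12 highest-scoring peaks neither multi-copy nor pentamer-rich, and list members with a kept peak. Alternatives changed the overlap required, the score threshold, loci, repeats, length weights, genes and promoter length. Overlaps, k-mer counts, loci and intervals were tested on simulated data, and 10 of 10 checks passed.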

Additional observations from a re-analysis of the deposited data

How the results depend on the processing

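The 17 results, nearly all differences between kept and other vehicle peaks, were recomputed under 98 alternatives: 52 stayed within the interval of the main value (counts: within 1.5 times) and 46 did not. The sign changed in 10 alternatives over 6 results, 2 of them for a difference whose interval left out 0. The other 8 were promoter, Alu, multi-copy and GC differences whose interval held 0, and the median Aβ1–42 minus vehicle length, which was -11 nt in 1-to-1 pairs against 15 nt. The cause of these moves was not tested. Tandem repeats and their alternatives were added after the data were seen. Values are percentage points unless named. With scores at or above the list median in both lists, 170 peaks were kept. The differences were then 32.0 for intergenic, -30.7 for intron, 50.1 for pentamer-rich, 37.3 for TCCAT, 16.0 for the A/T-rich pattern, 25.9 and 30.7 for vehicle and Aβ1–42 SATB1, 46.4 for clustered, 46.7 for tandem, -0.66 for median GC and 440.5 nt for median length. With 1 peak per locus there were 218, with 13.5 for intergenic, -12.3 for intron, 16.2 for pentamer-rich, 12.3 for TCCAT, -4.34 (reversed) for the A/T-rich pattern, 7.03 and 13.1 for SATB1, 23.9 for tandem, 1.66 for GC and 20 nt for length. Without pentamer-rich peaks the values were 6.12 for intergenic, -5.22 for intron, 0.838 for promoter, 1.15 for TCCAT, -9.70 (reversed) for the A/T-rich pattern, 2.61 and 12.2 for SATB1, 6.06 for clustered, 11.6 for tandem, 4.56 for GC and 11 nt for length. Weighted to the lengths of kept peaks they were 20.1 for intergenic, -18.1 for intron, 26.9 for pentamer-rich, -15.0 for multi-copy, 18.4 for TCCAT, 10.8 for vehicle SATB1, 15.8 for clustered, 16.3 for tandem and -2.72 for GC. With protein-coding genes only they were 17.2 for intergenic and -15.1 for intron, and without multi-copy peaks 0.53 for GC. No paired analysis was possible because there was 1 library per group. With no reads or replicates, depth and the removal of input peaks limit what can be said of any peak found in 1 list alone.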
